A study of Mus musculus with 10 samples.

Results

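The genes described here encode the subunits of oxidative phosphorylation, the chain of enzyme complexes in the inner mitochondrial membrane that passes electrons from nutrients to oxygen and uses the energy to make ATP. They were taken from the gene table by symbol: protein-coding genes of the Nduf, Uqcr, Cox4 to Cox8 and Atp5 families, Cyc1, Cycs and every protein-coding gene of the mitochondrial genome, leaving out Cox7a1 and Cox8b. The rule gave 93 of 40503 genes, of which 80 lie in the nuclear genome and 13 in the mitochondrial genome. No measured value entered the rule, but it was chosen with earlier results of these data known. Complex I takes electrons from NADH, complex III passes them to the carrier cytochrome c, complex IV hands them to oxygen and complex V is the ATP synthase. Each of these 4 complexes is built from subunits of both genomes, while complex II is encoded in the nucleus alone. The nuclear subunit genes are read singly by RNA polymerase II, the enzyme that Mediator serves, whereas the mitochondrial genes are copied together as long precursors by a polymerase of their own and then cut apart.

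RNA-seq libraries came from gonadal white adipose tissue, the fat beside the ovaries and uterus, of 12-week-old female C57BL/6 mice, 5 labelled KO and 5 labelled WT, 1 library per animal. The KO label stands for Med19-iAKO, an inducible deletion of the Mediator subunit Med19 in adipose cells; the labels give tamoxifen at 100 mg/kg for 5 days and tissue taken 14 days later, and do not say which Cre line was used or whether the WT mice received tamoxifen. Med19 RNA was 6.79 ± 0.85 RPKM (SD, n = 5) in the KO-labelled and 6.70 ± 0.89 RPKM (SD, n = 5) in the WT-labelled libraries (2-sided exact permutation test, p = 0.881, smallest possible 0.0079), so that it checks no label and every direction below rests on the labels. RPKM is the read count divided by gene length and by library size. The libraries hold 14460050 to 20206350 reads assigned to genes.

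The tissue held the markers of white fat in every library, and their level differed between the groups. Of 10 adipocyte markers 9 fell, among them the hormone gene Adipoq at 307 ± 42 RPKM in the KO-labelled and 713 ± 99 RPKM (SD, n = 5 each) in the WT-labelled libraries, and the summed level of the 10 was 5559 to 5776 RPKM against 13566 to 19557 RPKM. Markers of neutrophils (3 of 5), fibroblasts (2 of 8) and macrophages (1 of 10) rose and 1 of 6 endothelial markers fell, with 5, 4, 6 and 1 at an unadjusted p under 0.05, where 5.95% of all tested genes were called and 24.7% were at an unadjusted p under 0.05. Of the other lists, 0 of the tested markers of lymphocytes (7), mesothelium (5), brown fat (3) and the reproductive tract (2) were called (limma, with 0, 1, 0 and 0 at an unadjusted p under 0.05). In bulk tissue, fewer cells of a type and less RNA per cell cannot be told apart, and the part of this shift in the values below was not tested.

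WT 86 and WT 89 stood apart from the other 8 libraries at a mitochondrial gene and its nuclear copy. Stretches of mitochondrial DNA have been copied into the nuclear chromosomes in the past, and the annotation holds several such copies as pseudogenes. The pseudogene Gm28438 matches mt-Nd3, a membrane subunit of complex I, over 345 bases with 1 mismatch, T3C, counted from the first base of mt-Nd3, with the mitochondrial base first. Gm28438 held 27, 23, 48, 41 and 32 reads in KO 1, KO 4, KO 7, KO 8 and KO 17 and 47, 52 and 25 in WT 2, WT 9 and WT 19, but 0 in WT 86 and WT 89. The gene mt-Nd3 itself held 2 reads in WT 86, 8 in WT 89 and 0 in the other 8 libraries. The mitochondrial arginine tRNA gene mt-Tr held 4 reads in each of WT 86 and WT 89, 1 in KO 8 and 0 elsewhere. These counts are small, the labels name no substrain, and whether the pattern follows the mitochondrial DNA of the animals was not tested. For the subunit genes, results are given without WT 86 and WT 89 where that changes a call. Single genes of the marker lists and other lists were not examined without those libraries. Over all tested genes, 72 rose and 139 fell without WT 86 and WT 89, in place of 681 and 332.

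The first 120 bases of mt-Nd3 and of its copy are shown because they hold the single base that separates them (in capitals). The sequences are from the GENCODE M21 transcripts, 5′ to 3′ on the coding strand.
mt-Nd3: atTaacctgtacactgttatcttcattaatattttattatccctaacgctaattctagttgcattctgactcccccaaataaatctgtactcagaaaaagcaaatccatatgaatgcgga
Gm28438: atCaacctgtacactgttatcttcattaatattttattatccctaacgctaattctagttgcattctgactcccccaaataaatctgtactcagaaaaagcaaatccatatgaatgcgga
The next pair shows a gene that no read-counting by unique position can tell from its copy: mt-Co2, the copper-binding subunit 2 of complex IV, and Gm28661 are identical over all 681 aligned bases.
mt-Co2: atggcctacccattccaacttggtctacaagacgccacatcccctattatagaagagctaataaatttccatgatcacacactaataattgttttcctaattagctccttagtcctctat
Gm28661: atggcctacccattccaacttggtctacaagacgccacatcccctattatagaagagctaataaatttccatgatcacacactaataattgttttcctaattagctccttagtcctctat
The third pair shows where a partial copy begins. Gm29216 matches mt-Co1, the catalytic subunit of complex IV, from base 1054 on, with 6 mismatches (capitals), namely T1056A, C1057T, A1059G, A1060G, C1062A and A1066T counted from the first base of mt-Co1, and then 479 identical bases.
mt-Co1: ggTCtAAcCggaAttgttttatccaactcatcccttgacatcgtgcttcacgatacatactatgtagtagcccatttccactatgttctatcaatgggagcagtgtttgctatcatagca
Gm29216: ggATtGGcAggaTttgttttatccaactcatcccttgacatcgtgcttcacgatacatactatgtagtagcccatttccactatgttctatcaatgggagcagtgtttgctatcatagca
The start of mt-Cytb, the haem-carrying subunit of complex III, is given as a gene that shares no stretch of 50 bases with another annotated transcript.
mt-Cytb: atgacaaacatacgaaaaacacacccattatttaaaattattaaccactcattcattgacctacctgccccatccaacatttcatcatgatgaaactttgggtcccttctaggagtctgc

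The mitochondrial genes that share nearly all their sequence with such copies were at or near 0 in the deposited gene table. The share of all stretches of 50 bases that also occur in another annotated transcript was 100% for mt-Co2, 99.9% for mt-Co3, 99.5% for mt-Atp6, 98.8% for mt-Nd4l and 98.0% for mt-Nd3. Of these genes 4 were listed at 0 in all 10 libraries of the gene table, and mt-Nd3 held the few reads given above. The shares were 62.2% for mt-Nd4, 51.1% for mt-Co1, 8.19% for mt-Nd2 and 7.61% for mt-Nd5, and 0% for mt-Nd1, mt-Nd6 and mt-Cytb, and these 7 genes were measured at mean levels of 592 (mt-Nd6) to 3872 RPKM (mt-Co1). The gene mt-Atp8 is an exception: it shares no such stretch and was still listed at 0 in the gene table. It is 204 bases long, lies between mt-Co2 and mt-Atp6 and overlaps mt-Atp6 by 43 bases. Only annotated transcripts were searched, and whether mt-Atp8 has a nuclear copy outside them was not tested.

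The transcript table lists several of the same genes at high levels. It gives mt-Atp8 at 1373 to 6445 RPKM, mt-Nd4l at 834 to 3758 RPKM and mt-Atp6 at 307 to 558 RPKM over the 10 libraries. It gives mt-Co3 at 27.5 to 101 RPKM and mt-Co2 at 6.49 to 26.5 RPKM, and mt-Nd3 at 0 in all 10. A gene listed at 0 in the gene table is therefore not shown to lack RNA, and the 6 genes listed at or near 0 there (mt-Nd3, mt-Nd4l, mt-Co2, mt-Co3, mt-Atp6 and mt-Atp8) enter no comparison of genes below.

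**Figure D1:**
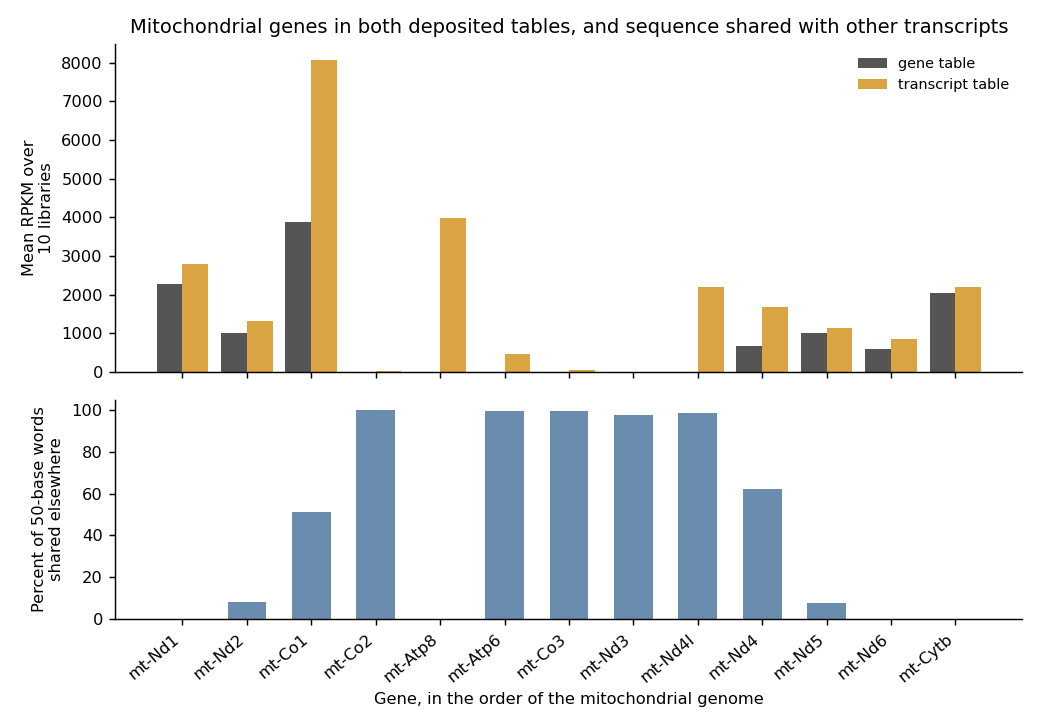
The 13 mitochondrial protein-coding genes in the order of the mitochondrial genome. Upper bars give the mean RPKM over the 10 libraries in the deposited gene table (grey) and transcript table (yellow), and lower bars give the percent of 50-base stretches also found in another annotated transcript. The 5 genes with over 90% shared are at or near 0 in the gene table, and mt-Atp8 is at 0 there with 0% shared.

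Between the groups, RNA of the nuclear subunit genes was close to level. Of the 80 nuclear genes, 78 reached 0.5 RPKM in at least 5 libraries and were tested with limma on log2(RPKM + 0.5). At a Benjamini-Hochberg adjusted p under 0.05 over all 17038 tested genes, 1 of the 78 rose, Cox6a2, and 0 fell, where 5.95% of all tested genes were called (4% higher and 1.95% lower). At an unadjusted p under 0.05 there were 6 of 78 genes (7.69%), against 24.7% of all tested genes. With voom on reads recovered from the RPKM values, 1 nuclear gene rose and 0 fell. The log2 change, KO minus WT, was above 0 for 41 and below 0 for 37, with a median of 0.003 and a range from -0.53 (Atp5l) to 0.83 (Cox6a2). The median over all tested genes was 0.089. Under scaling by median ratios it was 0.006, and the nuclear median was -0.089. All tested genes that rose then numbered 101 in place of 681, so that the shares over all genes depend on the scaling. The nuclear calls stayed at 1 higher and 0 lower. For 67 of the 78 genes the 95% interval of the change lay within 1.5-fold in either direction, and for 76 within 2-fold, so that larger changes of these genes lie outside the intervals. All but 1 of the 85 tested genes of both genomes had overlapping groups, Cox6a2 being the exception, where 9.11% of all tested genes did not overlap.

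**Figure D2:**
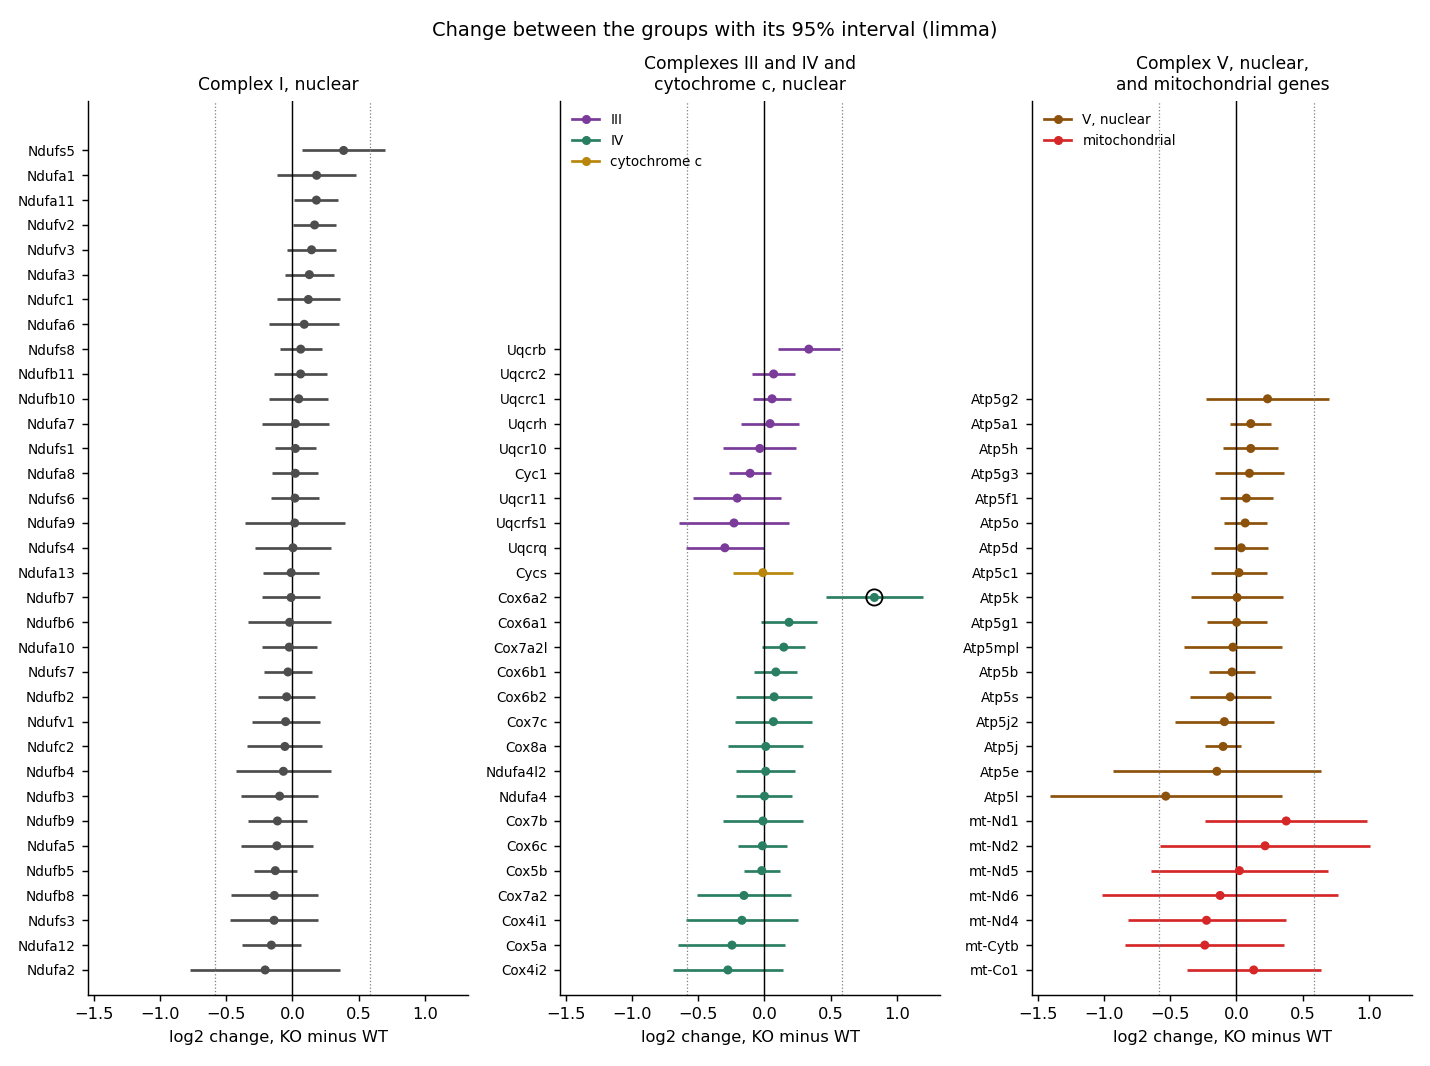
Log2 change, KO minus WT, of RPKM + 0.5 with its 95% interval from limma for 77 of the 78 nuclear and the 7 mitochondrial genes tested, by complex. Dotted lines mark 1.5-fold and the ring marks Cox6a2, the gene called at an adjusted p under 0.05. Of the nuclear intervals shown 66 lie inside the dotted lines, and of the mitochondrial intervals 0 do.

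Complex I has 35 nuclear genes in the list, all tested, and 0 were called by limma, with 3 at an unadjusted p under 0.05. Their changes ran from -0.21 (Ndufa2) to 0.39 (Ndufs5) with a median of 0.004, and 33 of the 35 intervals lay within 1.5-fold. The most abundant were Ndufb9, an accessory subunit of the membrane arm, at 188 ± 17 RPKM in the KO-labelled and 204 ± 25 RPKM in the WT-labelled libraries, and Ndufa1, another small membrane subunit, at 159 ± 22 and 141 ± 23 RPKM (SD, n = 5 each). Ndufs1, the largest of the core subunits that carry electrons, was at 10.3 ± 0.5 and 10.1 ± 0.9 RPKM (SD, n = 5 each). The largest change was in the accessory subunit Ndufs5, which was at 7.96, 11.3, 11.3, 10.5 and 10.7 RPKM in KO 1, KO 4, KO 7, KO 8 and KO 17 and at 8.45, 9.67, 5.74, 8.77 and 6.77 RPKM in WT 2, WT 9, WT 19, WT 86 and WT 89. KO 1 lay among the WT values and the other 4 lay above them all. Its log2 change of 0.39 (SE 0.14) did not pass the test (limma, adjusted p = 0.126). The other 2 at an unadjusted p under 0.05 were Ndufa11 (log2 change 0.18, limma adjusted p = 0.170) and the flavoprotein-arm subunit Ndufv2 (0.17, limma adjusted p = 0.193).

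Ndufa2 spread more than any other nuclear gene of complex I. It was at 78.6, 193, 67.4, 99.3 and 109 RPKM in KO 1, KO 4, KO 7, KO 8 and KO 17, and at 91.7 to 140 RPKM in the WT-labelled libraries. KO 4 was above all the others and KO 7 below them, and the groups overlapped.

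Complex III has 9 nuclear genes, all tested, and 0 were called by limma, with 2 at an unadjusted p under 0.05 (Uqcrb and Uqcrq). Uqcr10, a small subunit, was at 156 ± 29 RPKM in the KO-labelled and 159 ± 18 RPKM in the WT-labelled libraries, and the core protein Uqcrc1 at 116 ± 5 and 111 ± 7 RPKM (SD, n = 5 each). The genes with the largest changes went opposite ways. Uqcrb, a small subunit beside the quinone site, was at 22.4, 22.7, 20.1, 16.5 and 17.0 RPKM in KO 1, KO 4, KO 7, KO 8 and KO 17 and at 15.4, 18.4, 14.6, 14.8 and 14.2 RPKM in WT 2, WT 9, WT 19, WT 86 and WT 89. KO 8 and KO 17 lay below WT 9, so that the groups overlapped; the log2 change was 0.33 (SE 0.11, limma adjusted p = 0.0863). When the libraries were rescaled to the same sum over genes that are not mitochondrial, it was 0.41 and passed the test (limma, adjusted p = 0.0343). Uqcrq, another small subunit, was at 13.0 ± 2.0 RPKM in the KO-labelled and 16.1 ± 2.8 RPKM in the WT-labelled libraries (SD, n = 5 each, log2 change -0.30, limma adjusted p = 0.197). Uqcrfs1, the Rieske iron-sulphur protein, had a single low library, KO 8 at 31.5 RPKM against 49.9 to 72.1 RPKM in the other 9. Cyc1, cytochrome c1 of the same complex, was at 72.1 ± 5.1 and 77.8 ± 5.6 RPKM, and Cycs, the mobile cytochrome c, at 0.905 ± 0.153 and 0.911 ± 0.072 RPKM (SD, n = 5 each).

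Complex IV holds the gene that rose, Cox6a2, the form of subunit 6a known from heart and skeletal muscle. It was at 3.20, 2.03, 1.44, 1.98 and 2.19 RPKM in KO 1, KO 4, KO 7, KO 8 and KO 17 and at 1.14, 1.04, 0.656, 0.946 and 1.12 RPKM in WT 2, WT 9, WT 19, WT 86 and WT 89. Every KO-labelled library lay above every WT-labelled one. The log2 change was 0.83 (SE 0.17, 95% interval 0.46 to 1.20, limma adjusted p = 0.0209). The level is low, with 7 to 32 reads per library. The call was lost without WT 86 (log2 change 0.82, limma adjusted p = 0.0505), without WT 86 and WT 89 (0.87, adjusted p = 0.104) and without KO 1 and KO 4 (0.68, adjusted p = 0.0849), while over all settings the change stayed between 0.66 and 1.07.

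Skeletal muscle genes went with Cox6a2 in some libraries and not in others, and the part of muscle tissue in the Cox6a2 values was not tested. The summed level of 10 muscle markers was highest in KO 1 and KO 4, at up to 104 RPKM, and 3.65 to 6.33 RPKM in KO 7, KO 8 and KO 17, below the 18.8 to 45.0 RPKM of the WT-labelled libraries; Cox6a2 was above every WT value in those 3 libraries too. Of the 5 muscle markers tested, 0 were called or reached an unadjusted p under 0.05 (limma). Their log2 changes had a median of 0.48 and ran up to 0.84. The lowest was that of Acta1, the muscle actin, at -1.92 (limma adjusted p = 0.247). The muscle creatine kinase Ckm reached 10.9 RPKM in KO 1 and 6.19 RPKM in KO 4, and stood at 2.69 RPKM or less in the other 8 libraries. KO 1 was the highest library for Cox6a2 as well.

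The form of subunit 6a found in most tissues, Cox6a1, was far more abundant, at 255, 308, 286, 249 and 249 RPKM in KO 1, KO 4, KO 7, KO 8 and KO 17 and 228, 252, 262, 240 and 201 RPKM in WT 2, WT 9, WT 19, WT 86 and WT 89. The groups overlapped and the change did not pass the test (log2 change 0.19, limma adjusted p = 0.260). The other isoform pairs overlapped between the groups and did not pass the test. Cox4i1, the usual form of the regulatory subunit 4, was at 140 ± 43 and 154 ± 24 RPKM, and Cox4i2, its hypoxia-responsive form, at 1.11 ± 0.34 and 1.45 ± 0.41 RPKM (SD, n = 5 each, limma adjusted p = 0.403). Cox6b1 was at 263 ± 8 and 249 ± 22 RPKM, and its testis form Cox6b2 at 3.08 ± 0.30 and 2.94 ± 0.65 RPKM. Cox7a2 was at 65.5 ± 15.0 and 72.0 ± 9.9 RPKM, and its relative Cox7a2l, a factor in supercomplex assembly, at 50.6 ± 4.3 and 45.6 ± 3.2 RPKM. Ndufa4, now counted with complex IV, was at 234 ± 9 and 235 ± 33 RPKM, and Ndufa4l2 at 3.98 ± 0.57 and 3.94 ± 0.38 RPKM.

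Cox8a, the most abundant nuclear gene of the list, was at 432 ± 56 RPKM in the KO-labelled and 430 ± 65 RPKM in the WT-labelled libraries (SD, n = 5 each). Cox7b was at 65.1 ± 13.2 and 64.9 ± 7.5 RPKM. Cox7b2 and Cox8c, forms known from testis, did not reach the filter; Cox8c had 0 reads in every library and Cox7b2 at most 1. Cox5b had the narrowest spread of all nuclear genes (104 ± 3 and 105 ± 7 RPKM), while Cox5a, its partner in the complex, had a single low library, KO 8 at 45.1 RPKM against 72.1 to 96.7 RPKM in the other 9. In all, 16 nuclear genes of complex IV were tested, with a median log2 change of 0.005 and 12 intervals within 1.5-fold. The forms left out of the list, which are known from muscle and brown fat, were not called either: Cox7a1 had a log2 change of 0.05 and Cox8b of 0.55 (limma adjusted p = 0.956 and 0.442), with WT 86 highest for both at 14.4 and 44.1 RPKM. Ucp1, the uncoupling protein of brown fat, was also highest in WT 86, at 13.4 RPKM, followed by KO 7 at 5.70 RPKM.

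Complex V has 17 nuclear genes, all tested, and 0 were called by limma or reached an unadjusted p under 0.05. The catalytic subunits were close to level: Atp5a1, subunit alpha, was at 268 ± 11 RPKM in the KO-labelled and 249 ± 17 RPKM in the WT-labelled libraries, and Atp5b, subunit beta, at 186 ± 12 and 191 ± 16 RPKM (SD, n = 5 each). Subunit c, the ring that turns in the membrane, comes from 3 genes whose mature protein is the same. Atp5g3 was at 80.4 ± 10 and 75.2 ± 10.7 RPKM, Atp5g1 at 0.98 ± 0.13 and 0.98 ± 0.13 RPKM and Atp5g2 at 1.72 ± 0.60 and 1.33 ± 0.25 RPKM in the gene table. The largest change on paper was in Atp5l, subunit g of the membrane part, at -0.53, which did not pass the test (SE 0.39, limma adjusted p = 0.447). It was at 23.9, 4.07, 12.4, 21.7 and 16.4 RPKM in KO 1, KO 4, KO 7, KO 8 and KO 17 and at 17.1 to 25.7 RPKM in the WT-labelled libraries. KO 4 was far below the rest. Atp5e, subunit epsilon, went the other way in that library, at 54.6 RPKM in KO 4, 14.0 to 21.5 RPKM in the other KO-labelled and 18.0 to 38.7 RPKM in the WT-labelled libraries.

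Shared sequence also touches the nuclear genes. Processed pseudogenes, copies of mRNAs put back into the genome, are common for these genes, and 46 of the 80 share at least 1 stretch of 50 bases with another annotated transcript. Among tested genes, the median level in the gene table was 54.0 RPKM for the 32 with no shared stretch, 57.5 RPKM for the 28 with under 20% shared and 19.1 RPKM for the 18 with 20% or more. In the transcript table the corresponding medians, summed over each gene's transcripts, were 97.6, 109 and 103 RPKM. Over 17 genes the transcript sum was more than 5 times the gene value. Atp5g2 (38.3% of stretches shared) was at 1.52 RPKM as a gene and 141 RPKM over its transcripts, and Cox7c (23.0%) at 9.87 and 334 RPKM. The gap was not confined to high shares. Atp5g1 (11.1%) was at 0.98 and 85.2 RPKM, and Ndufb2 (5.33%) at 1.90 and 63.3 RPKM. Among the 32 genes with no shared stretch the transcript sum reached 6.95 times the gene value. Atp5l has 84.8% of its stretches shared, with 13 other genes. The levels of such genes in the gene table are therefore uncertain, and the order of levels among them differs between the tables, while the median log2 change was near 0 in each class (0.003, 0.005 and -0.01).

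No difference between the groups was detected in the 7 measured mitochondrial genes, with far wider intervals. The numbers called at an adjusted p under 0.05 and at an unadjusted p under 0.05 were both 0 of 7 (limma; 0 also with voom on recovered reads). The log2 changes ran from -0.24 (mt-Cytb) to 0.38 (mt-Nd1) with a median of 0.023, and 0 of 7 intervals lay within 1.5-fold and 5 within 2-fold. The interval of each of the 7 genes thus contains changes of more than 1.5-fold, while those of most nuclear genes do not.

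The gene mt-Nd1, a membrane core subunit of complex I, was at 3007, 1353, 4019, 2339 and 2281 RPKM in KO 1, KO 4, KO 7, KO 8 and KO 17 and at 2742, 1920, 1392, 1908 and 1696 RPKM in WT 2, WT 9, WT 19, WT 86 and WT 89. The KO-labelled values enclosed those of the WT-labelled libraries, and the log2 change of 0.38 (SE 0.28) did not pass the test (limma, adjusted p = 0.440). The gene mt-Cytb was at 2139, 990, 3022, 2002 and 1506 RPKM in the KO-labelled libraries in the same order and at 2793, 1966, 1680, 2430 and 1969 RPKM in the WT-labelled ones (log2 change -0.24, SE 0.27, limma adjusted p = 0.639). Again the lowest and the highest library were both KO-labelled, KO 4 and KO 7. The gene mt-Co1 was at 4480, 2519, 6172, 4010 and 3360 RPKM and at 4375, 3799, 2687, 3792 and 3522 RPKM (log2 change 0.13, limma adjusted p = 0.778), with the same 2 libraries at the ends.

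The other 4 had the same libraries at the ends. The membrane subunits mt-Nd2, mt-Nd4 and mt-Nd5 of complex I were at 1108 ± 521, 628 ± 247 and 1036 ± 431 RPKM in the KO-labelled and at 895 ± 291, 702 ± 153 and 961 ± 225 RPKM in the WT-labelled libraries. The gene mt-Nd6, the only one of the 13 on the light strand, was at 595 ± 296 and 588 ± 183 RPKM (SD, n = 5 each). KO 7 was the highest library for 7 of the 7 genes and KO 4 the lowest for 7 of the 7. Without those libraries the log2 change of mt-Nd1 was 0.42 (limma, adjusted p = 0.279) and that of mt-Cytb -0.20 (adjusted p = 0.588), so that their direction did not rest on them; without KO 4 alone they were 0.59 (adjusted p = 0.135) and -0.02 (adjusted p = 0.966). The signs of mt-Nd2, mt-Nd5, mt-Nd6 and mt-Co1 depended on the setting.

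**Figure D3:**
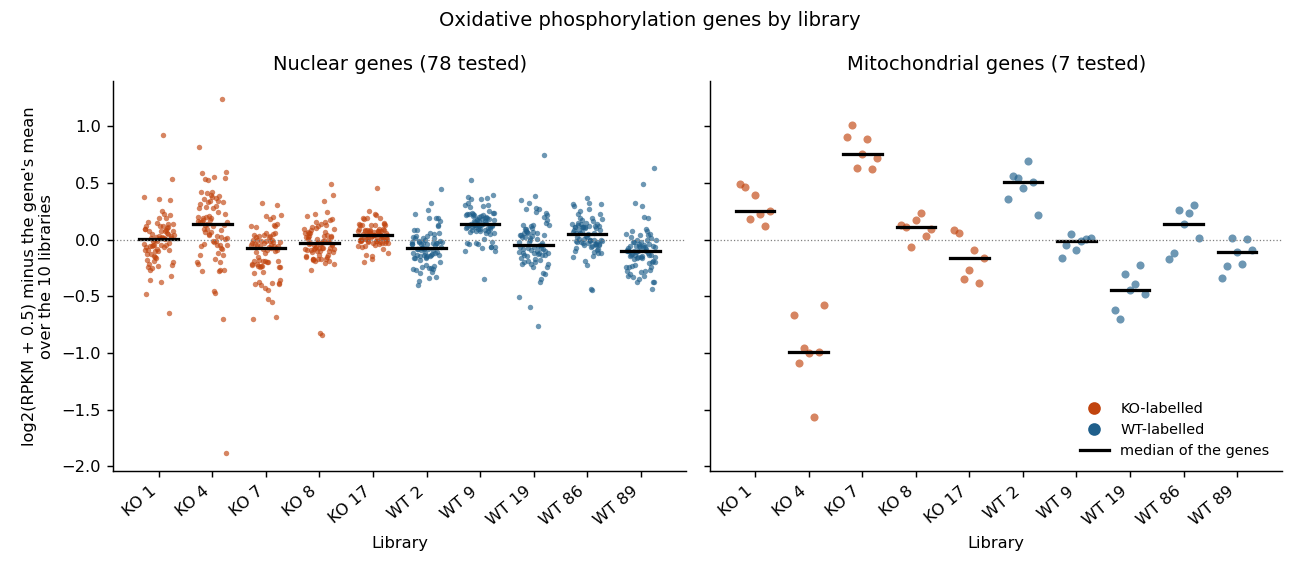
Each point is 1 gene in 1 library, as log2(RPKM + 0.5) minus that gene's mean over the 10 libraries, for the 78 nuclear (left) and 7 mitochondrial genes (right); black lines are medians. The mitochondrial medians run from -0.99 in KO 4 to 0.76 in KO 7, and the nuclear medians from -0.10 in WT 89 to 0.14 in WT 9.

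The mitochondrial genes spread more between libraries of a group than the nuclear genes did. The median SD within groups, on the log2 scale, was 0.167 for the 78 nuclear genes (range 0.072 to 0.706) and 0.481 for the 7 mitochondrial genes (range 0.386 to 0.712), beside 0.175 for all 17038 tested genes. Among the 60 other genes with a mean of at least 500 RPKM, the level of the mitochondrial genes, it was 0.254. Summed over the 7 genes, mitochondrial RNA was 12007 ± 4582 RPKM in the KO-labelled and 10881 ± 2343 RPKM in the WT-labelled libraries, and ranged from 6282 RPKM in KO 4 to 18675 RPKM in KO 7. The 7 genes took 0.818% to 2.36% of the reads in the KO-labelled and 1.02% to 1.81% in the WT-labelled libraries. The nuclear sum was 5211 ± 308 and 5179 ± 381 RPKM (SD, n = 5 each). In the gene table the 7 mitochondrial genes thus outweighed all 80 nuclear genes, by 1.10 times in KO 4 and 3.79 times in KO 7. Levels of genes with shared sequence are uncertain there, and the mitochondrial genes at or near 0 are left out. The ratio therefore holds for that table only.

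The nuclear genes did not follow the mitochondrial ones across libraries. KO 4, lowest for all 7 mitochondrial genes, was the highest library for 30 of the 78 nuclear genes, and KO 7, highest for all 7, was the lowest for 23. WT 9 was highest for 22 nuclear genes and in the middle of the mitochondrial range, and WT 89 was lowest for 20. KO 4 also held the fewest reads of mitochondrial ribosomal RNA: mt-Rnr1 and mt-Rnr2 together were at 1639 RPKM there and at 9368 to 15326 RPKM in the other 9 libraries. KO 4 is the deepest library and had muscle markers near the top; the part of these in the spread was not tested.

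**Figure D4:**
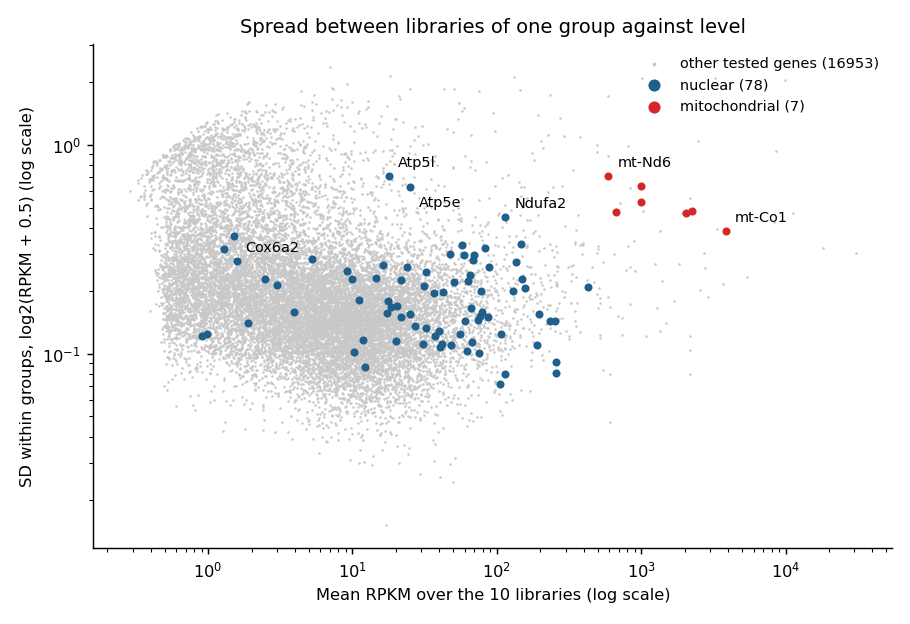
SD within groups of log2(RPKM + 0.5) against mean RPKM (log scales) for the 78 nuclear genes (blue), the 7 mitochondrial genes (red) and all other tested genes (grey). The 7 mitochondrial genes lie between 0.386 and 0.712, above the median of 0.254 of the other genes at 500 RPKM or more; Atp5l and Atp5e are the nuclear genes with the widest spread.

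Relative to each other, the mitochondrial genes did differ in make-up between the groups. This was noticed in the values and is given as a description with no test. As a share of the summed RPKM of the 7 genes, mt-Nd1 took 22.3, 21.5, 21.5, 20.05 and 23.0% in KO 1, KO 4, KO 7, KO 8 and KO 17 and 19.1, 18.0, 17.5, 16.7 and 17.0% in WT 2, WT 9, WT 19, WT 86 and WT 89. Every KO-labelled library was above every WT-labelled one, although the level of mt-Nd1 itself overlapped. The share of mt-Cytb was 15.8, 15.8, 16.2, 17.2 and 15.2% against 19.4, 18.4, 21.1, 21.3 and 19.8%, and that of mt-Nd4 was 5.34, 5.21, 5.27, 5.22 and 5.05% against 6.44, 6.18, 6.50, 6.67 and 6.45%. For these genes every KO-labelled library was below every WT-labelled one. The shares of mt-Nd2, mt-Co1, mt-Nd5 and mt-Nd6 overlapped. Shares sum to 100%, so that a higher share of a gene lowers those of the others.

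A ratio of single genes does not depend on the rest of the sum. All ratios given here have mt-Cytb as the denominator, so that a lower mt-Cytb alone would raise each of them. The ratio of mt-Nd1 to mt-Cytb was 1.41, 1.37, 1.33, 1.17 and 1.51 in KO 1, KO 4, KO 7, KO 8 and KO 17 and 0.982, 0.977, 0.828, 0.785 and 0.861 in WT 2, WT 9, WT 19, WT 86 and WT 89, with no overlap. Neither gene shares a stretch of 50 bases with another annotated transcript, and each held at least 21591 reads in every library. KO 4 and KO 7, at the ends of the range in level, were in the middle of the KO-labelled range in this ratio. The ratios of mt-Co1 and mt-Nd5 to mt-Cytb did not overlap either, at 2.00 to 2.54 against 1.56 to 1.93 and 0.479 to 0.581 against 0.415 to 0.465. That of mt-Nd4 to mt-Cytb was 0.304 to 0.337 against 0.308 to 0.335, so that mt-Nd4 and mt-Cytb kept their proportion. The ratios of mt-Nd2 and mt-Nd6 to mt-Cytb overlapped too. They were 0.439 to 0.639 against 0.340 to 0.489 and 0.185 to 0.338 against 0.238 to 0.315. In the transcript table the ratio of mt-Nd1 to mt-Cytb was 1.32 to 2.03 in the KO-labelled and 0.964 to 1.30 in the WT-labelled libraries, again with no overlap, while the share of mt-Cytb overlapped. The highest ratio was that of KO 4, at 2.03, and the other KO-labelled libraries were at 1.32 to 1.56. In that table the other ratios did overlap, at 3.70 to 5.21 against 3.003 to 4.17 for mt-Co1 and 0.513 to 0.587 against 0.414 to 0.541 for mt-Nd5. The summed adipocyte markers separate the groups in the same way, and their part in these ratios was not tested.

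**Figure D5:**
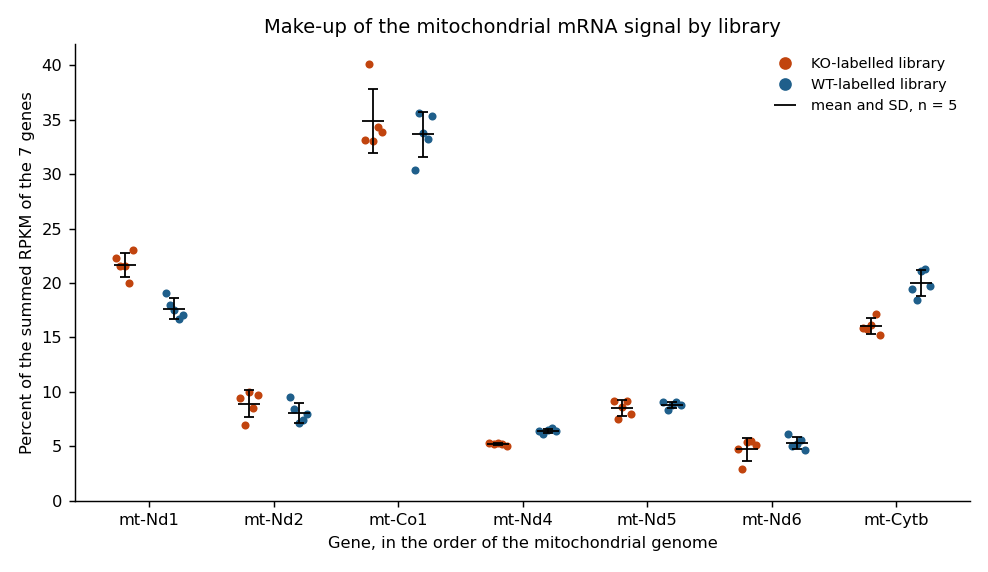
Percent of the summed RPKM of the 7 measured mitochondrial genes taken by each gene, in the order of the mitochondrial genome; points are libraries, and lines give the mean and SD (n = 5). For mt-Nd1 all KO-labelled points (20.05 to 23.0%) lie above the WT-labelled ones (16.7 to 19.1%), and for mt-Nd4 and mt-Cytb all lie below.

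In the transcript table, 268 of the 305 transcripts of these genes were tested, and 1 was called, where 0.544% of all 44475 tested transcripts were called. It was the transcript of mt-Co3, subunit 3 of complex IV, at 77.2, 65.4, 45.9, 53.9 and 101 RPKM in KO 1, KO 4, KO 7, KO 8 and KO 17 and 31.4, 33.1, 27.5, 30.9 and 30.3 RPKM in WT 2, WT 9, WT 19, WT 86 and WT 89. All KO-labelled libraries were above all WT-labelled ones (log2 change 1.10, SE 0.19, limma adjusted p = 0.0382). The call was lost on leaving out any single library other than KO 7 or KO 17. The level is far below that of the measured mitochondrial genes, 99.9% of its 50-base stretches occur in Gm28437 too, and the gene table lists mt-Co3 at 0, so that reads of the gene and of the copy cannot be told apart. Of the 268 transcripts 5 (1.87%) had groups that did not overlap, against 2.87% of all. The other 4 were the transcripts of Cox6a1 and Cox6a2, a retained-intron transcript of Ndufs1 (log2 change 0.70, limma adjusted p = 0.248) and a minor transcript of Cox4i1 (-0.87, adjusted p = 0.185).

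Genes that build, regulate and accompany these complexes were read from lists. Over all tested genes, 5.95% were called and 24.7% were at an unadjusted p under 0.05, so that 0 calls in a list of 4 to 20 genes says little. The 4 subunits of complex II, which has no mitochondrially encoded part, were not called (limma, 0 at an unadjusted p under 0.05, log2 changes -0.21 for Sdhb to 0.13 for Sdhc). Of the assembly factors tested, 0 of 17 for complex I, 0 of 5 for complex III, 0 of 20 for complex IV and 0 of 5 for complex V were called by limma (1, 2, 2 and 0 at an unadjusted p under 0.05), with medians between -0.03 and 0.08. The largest changes among them were in Tmem126a (0.30, limma adjusted p = 0.0999) for complex I and Uqcc2 (0.28, adjusted p = 0.184) for complex III. Among 16 genes that copy and transcribe mitochondrial DNA and 20 that process or stabilise its RNA, 0 were called by limma (1 and 3 at an unadjusted p under 0.05); the largest changes were in Mterf2 (0.30, adjusted p = 0.141) and in Pnpt1, which degrades mitochondrial RNA (0.31, adjusted p = 0.0846).

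Of 75 mitochondrial ribosome genes tested, 1 rose and 1 fell, where 5.95% of all tested genes were called, and 20 were at an unadjusted p under 0.05, against 24.7% of all tested genes. Mrpl32 was at 20.3 ± 2.7 RPKM in the KO-labelled and 14.8 ± 1.8 RPKM in the WT-labelled libraries (log2 change 0.44, limma adjusted p = 0.0371), and Mrps6 at 11.5 ± 1.4 and 20.4 ± 1.7 RPKM (log2 change -0.80, limma adjusted p = 0.0011). Among 17 other genes of mitochondrial membranes and matrix, 1 fell (3 at an unadjusted p under 0.05): the outer-membrane fusion gene Mfn2, at 28.4 ± 1.7 and 33.8 ± 1.7 RPKM (log2 change -0.25, limma adjusted p = 0.0393). The pore Vdac1 was at 51.9 ± 3.7 and 51.6 ± 1.5 RPKM. Among 10 tested nuclear regulators, 1 fell (3 at an unadjusted p under 0.05), Ppara, a nuclear receptor for fatty acids, at 0.999 ± 0.193 and 2.33 ± 0.42 RPKM (log2 change -0.91, limma adjusted p = 0.0042). The coactivator Ppargc1b was at 3.85 ± 0.43 and 5.39 ± 1.10 RPKM (log2 change -0.42, limma adjusted p = 0.0801), while its relative Ppargc1a did not reach the filter.

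Nrf1 and Gabpa, whose factors are known to bind promoters of respiratory genes, had log2 changes of 0.12 and 0.21 (limma adjusted p = 0.329 and 0.130), and Esrra, an oestrogen-related receptor with the same role, of -0.05 (adjusted p = 0.834). The letters these factors prefer stood in a larger share of the promoter windows of the nuclear genes than of all windows. RefSeq windows of 300 bases around the start (250 before and 50 after, GRCm38.p6) were found for 64 of the 80 nuclear genes, 69 windows in all, and compared with 32851 windows of all genes, on both strands. The NRF1 letters (GCGCA, any base, then GCGC) stood in 23.2% of the windows of these genes and 4.60% of all windows, and the YY1 letters AAGATGGCG in 10.1% and 1.40%. The letters CCGGAAG, read by GABPA and other ETS factors, stood in 20.3% and 8.86%. The ERR letters CAAGGTCA stood in 4.35%, only 3 of the 69 windows, and 1.56%. For the short CCAAT the shares were close, at 42.0% and 37.4%. A match is a string of letters and not a shown binding site. The window of Atp5h, a subunit of the ATP synthase stalk, is given as an example, 1 of 5 with 3 kinds of match, the most found, at chr11:115419870-115420169 on the minus strand of GRCm38.p6, with the matches in capitals: the NRF1 letters, CCAAT on the other strand at 2 places, and the GABPA letters on the other strand.
Atp5h promoter: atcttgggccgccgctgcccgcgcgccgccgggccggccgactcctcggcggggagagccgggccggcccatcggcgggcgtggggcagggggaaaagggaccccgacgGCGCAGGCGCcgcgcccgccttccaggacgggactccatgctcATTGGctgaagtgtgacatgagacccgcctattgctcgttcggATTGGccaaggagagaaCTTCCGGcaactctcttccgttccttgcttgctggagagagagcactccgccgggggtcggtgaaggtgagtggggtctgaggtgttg
Atp5h itself was at 18.0 ± 1.0 RPKM in the KO-labelled and 16.8 ± 2.4 RPKM in the WT-labelled libraries (SD, n = 5 each, log2 change 0.11, limma adjusted p = 0.525).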

How the data were processed

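RNA from gonadal white adipose tissue was sequenced in 10 libraries, 5 labelled KO and 5 labelled WT. The authors deposited a table of genes and a table of transcripts, and the unit RPKM is per the file names and headers. The tools were bcl2fastq, STAR, featureCounts and Subread, per the submitters' processing notes. Build, annotation, strand setting and the program behind the transcript values: not given in the sources used here. All columns of per-sample values were used (0 left out).

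Repeated rows were used once (40503 genes from 40770 rows, 84046 transcripts from 84752). Whole reads were recovered from the RPKM steps with a tolerance of 0.001 reads, for 19492 genes at the GENCODE M21 exon length and 8914 at another length, which gave 99.85% to 99.87% of the reads behind the values; they served for depth and for an added voom fit (17033 genes, 1228 called). The main test was limma 3.58.1 in R 4.3.3 on log2(RPKM + 0.5) with eBayes (trend and robust, statmod 1.5.0), 2-sided, over genes of at least 0.5 RPKM in at least 5 libraries, with Benjamini-Hochberg adjustment over all tested genes and calls under 0.05. Fold changes on this scale understate those of low genes. Adjusted p-values without a named tool are from this fit. Transcripts were fitted in the same way. Library titles carry animal numbers, and p-values measure the spread between these libraries.

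On simulated reads the fit called 49 of 91 genes changed 1.5-fold and 82 of 90 changed 2-fold. It called 3 of 15423 genes in a simulation with no change. The simulated spread was set by level alone, independently for each gene, with no shift shared by the genes of a library. These shares therefore do not give the power or the rate of false calls in the measured libraries. Shared sequence was counted as stretches of 50 bases of the exons found in another annotated transcript of GENCODE M21.

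The members and the lists were chosen with earlier results of these data known. Genes named are those called or not overlapping, all mitochondrial members, the 2 most abundant and 2 most changed nuclear members per complex, isoform pairs, the widest and narrowest spreads, and the called or most changed genes of the other lists; Ndufs1, Cox5a, Ndufa11, Ndufv2, Cyc1, Cox7c, Ndufb2, Atp5h, Vdac1, Ckm, Acta1, Ppargc1b, Nrf1, Gabpa, Esrra, Ucp1 and Adipoq were added after their values were seen. The values of 1 member are not reported here. Alternatives were a pseudocount of 1 or 0.1, a filter at 1 RPKM or none, array weights, scaling by median ratios, by quantiles or to genes outside the mitochondrial genome, eBayes with neither trend nor robust, and each library left out; leaving out KO 4 with KO 7, WT 86 with WT 89 or KO 1 with KO 4, and voom, were chosen after seeing the data.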

Additional observations from a re-analysis of the deposited data

Results flagged for a closer look

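In 10 of 170 gene and group combinations (5.88%), a single library lay apart from the other 4 of its group by more than Dixon's critical value for 5 samples; chance flags about 1 in 20 groups. KO 4 was high for 6 genes: Ndufa10 at 27.9 RPKM (others 23.4 to 24.2), Ndufb8 at 34.2 RPKM (18.0 to 21.8), Ndufs4 at 31.2 RPKM (18.2 to 21.1), Uqcr10 at 205.8 RPKM (136.7 to 154.0), Uqcr11 at 116.2 RPKM (64.6 to 79.1) and Atp5e at 54.6 RPKM (14.0 to 21.5). KO 1 was low for Ndufs5, at 7.96 RPKM (10.5 to 11.3), and high for Cox6b1, at 277.1 RPKM (256.5 to 261.7). WT 9 was high for Ndufs7, at 44.8 RPKM (38.2 to 39.5), and for Cox6b1, at 286.5 RPKM (233.0 to 245.5). The 10 flags fall on 9 nuclear genes, and 0 fall on the 7 mitochondrial genes, whose spread was wider.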

How the results depend on the processing

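Over 85 tested genes and 23 alternatives, 1949 of 1953 values kept their side of the threshold and 0 called values changed sign; the exceptions were Cox6a2, which lost its call in 3 settings, and Uqcrb, which gained one. No mitochondrial gene was called in any alternative. The number of nuclear genes that rose was 2 after rescaling to genes outside the mitochondrial genome, 0 without WT 86 and WT 89, 0 without KO 1 and KO 4, and 0 to 1 on leaving out each library, with 0 without WT 86; that of nuclear genes that fell was 0 throughout. The median nuclear change was -0.089 under median-ratio scaling, where the median of all tested genes was 0.006 in place of 0.089, and -0.024 to 0.034 on leaving out each library; the mitochondrial median ran from -0.16 to 0.27. The member transcripts called were 0 to 1 on leaving out each library.

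Over all tested genes, 681 rose and 332 fell. Those that rose numbered 292 with no filter, 101 under scaling by median ratios, 149 under quantile normalization, 1945 after rescaling to genes outside the mitochondrial genome, 134 without KO 4 and KO 7, 72 without WT 86 and WT 89, and 84 without KO 1 and KO 4. Those that fell numbered 164, 139 and 146 in the last 3 settings. On leaving out each library 188 to 689 rose and 206 to 314 fell. No paired analysis was possible because KO and WT libraries have no animal number in common. Cox6a2 had 7 to 32 reads per library, and each measured mitochondrial gene at least 1923; what depth adds to their spread was not tested.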
